A study of Homo sapiens with 6 samples.

Results

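FOXM1, the MYB-like factors MYBL1 and MYBL2, and the MuvB subunits LIN9, LIN37, LIN52 and LIN54 were followed in EJ cells, a human bladder cancer cell line, after knockdown of STIL, a centriole assembly protein. These 7 genes were found by symbol, with no threshold on their values, although the set was drawn up when earlier results of these data were known, and all 7 were among the 15953 genes in the log2 CPM tables (counts scaled to library depth on a log2 scale, normalized by the authors). RNA-seq was performed on 6 libraries of total RNA, 3 from EJ cells that stably carried a STIL knockdown lentivirus (shSTIL) and 3 from EJ cells that carried the negative control lentivirus (shNC). Both groups came from a single cell line. The lentiviral design is that of the sample labels and the study's methods, whereas the design text and the data files of the series call the groups siNC and siSTIL, which would mean siRNA, and the sources used here do not settle which was used. The sequence and the number of the STIL hairpins, and whether the 3 libraries of a group came from separate cultures, were not given in the sources used here, so the p-values below measure only the spread between these libraries.

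The MuvB core (LIN9, LIN37, LIN52, LIN54 and the histone-binding protein RBBP4) is a protein module that changes partners through the cell cycle. In resting cells it joins the pocket proteins RBL1 or RBL2 and the factors E2F4 or E2F5 with TFDP1 or TFDP2 in the DREAM complex, which represses cell cycle genes. In S phase the core releases these partners and binds MYBL2, and in G2 it recruits FOXM1, so that the same core then serves activation of the late genes of G2 and mitosis. LIN54 contacts the DNA element called the cell cycle genes homology region (CHR), whereas E2F proteins bind E2F elements in the early genes of G1 and S phase. In bladder cancer, as in other carcinomas, FOXM1 and MYBL2 are known as markers of proliferating tumour cells.

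Sequences near the start sites are shown first, as matches to the letters of the elements described above. Binding of these factors to them was not tested. Of the 7 genes, 5 matched promoters in the RefSeq table (GRCh38.p14), with 9 promoters in all, each of 250 bases before to 50 bases after a start. FOXM1 and MYBL1 had no entry. The letters searched on both strands were TTTGAA, its variant TTCGAA and its variant CTTGAA for the CHR, and TTTGGCGC, TTTCCCGC, TTTGGCGG and TTTCGCGC for the E2F element. A CHR match lay in 24.9% and an E2F match in 3.35% of all 35116 promoters. For each MuvB subunit 1 window is shown, read 5′ to 3′ on the strand of the gene, with the matched letters in capitals (the CHR in LIN9, LIN54 and LIN37, the E2F element in LIN52).
LIN9: gcgagctccgcaTTCGAAcctccctcgcaa
LIN54: ggcccttgtgcgTTTGAAggttggcggggc
LIN37: acgaagctcatcTTTGAActgtccccgcct
LIN52: tggaacctcgtTTTCCCGCcgacggttggc
The LIN9 window was at chr1:226309207-226309236 on the minus strand, 60 bases before an annotated start. The LIN54 window was at chr4:83010906-83010935 on the minus strand and lay 100 and 89 bases before 2 starts. The LIN37 window was at chr19:35748620-35748649 on the plus strand, 182 bases before a start, and the LIN52 window was at chr14:74084920-74084949 on the plus strand, 25 bases before its start. Further CHR matches lay in LIN9 at 3 bases before and 19 bases after the same start, and in LIN52 on the opposite strand at position -188 from its start. The other LIN9 promoters, with starts at chr1:226309503 and chr1:226309767, held no CHR and no E2F match. The same was true of the other LIN37 promoter, with its start at chr19:35748576. The single MYBL2 promoter held neither a CHR nor an E2F match to these exact letters. Other forms of the elements were not searched, so such an element was not excluded. Its one match among the motif sets was to the MYB-binding letters AACTG, at 5 bases after the start, and AACTG or AACGG was found in 52.4% of all promoters.

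The libraries held 16214772 to 16431243 reads in shNC and 16734469 to 16901634 in shSTIL, and the biological coefficient of variation over all genes was 3.02%. STIL itself had log2 CPM of 5.98, 6.10 and 6.01 in shNC and 4.05, 4.06 and 4.01 in shSTIL, and was thus at 25.2% of the control level (limma, adjusted p = 6.1e-12). Of the bladder markers, KRT20 had at most 1 read and UPK2 at most 5 reads in any library. KRT5 had at most 1 read and CDH1 (E-cadherin) at most 3, so these genes were close to 0 in both groups. Of the 4 basal markers listed, 2 were measured (KRT5 and CD44), and the basal keratins KRT6A and KRT14 were not. Of the 7 luminal markers measured, PPARG was higher in shSTIL (log2 fold change 0.26, limma adjusted p = 0.0046), FOXA1 (-0.53, 0.0017) and UPK1B (-1.12, 0.0035) were lower, and the other 4 were not called. These 7 summed to 31.6 to 33.5 CPM in shNC and 31.9 to 32.9 in shSTIL, and the 4 epithelial markers to 982 to 1017 and 853 to 886. CD44, KRT8, KRT18 and VIM were abundant, and the summed level of the 4 mesenchymal markers was 1550 to 1573 CPM in shNC and 981 to 1003 in shSTIL. Most of this sum was VIM (mean 1450 CPM in shNC and 932 in shSTIL). VIM and FN1 were lower (log2 fold changes -0.68 and -1.19), and ZEB1 (-0.03) and CDH2 (-0.31) were not called. Of the epithelial markers only KRT8 was lower (-0.70), and KRT18, EPCAM and CDH1 were not called. The part of the luminal, epithelial and mesenchymal differences in the results below was not tested. The leukocyte, endothelial and fibroblast markers summed to at most 4.04 CPM in any library, with 1 of 3, 2 of 2 and 2 of 2 of the listed genes measured.

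Of the 7 genes, 2 were lower in shSTIL (MYBL2 and FOXM1), 3 were higher (MYBL1, LIN52 and LIN9) and 2 passed the test in neither direction (LIN37 and LIN54). A gene was called at an adjusted p under 0.01 in limma over all genes. By this rule 47.1% of the 15953 genes were called, 23.6% as lower and 23.5% as higher, a background in which about as many genes rose as fell. All 7 genes averaged over 3 in log2 CPM, and of the 9943 genes at that level 32.8% were lower and 32.4% higher, so that 5 of 7 is close to the share of called genes at such levels. As a median over the 7 genes the log2 fold change was 0.08, compared with 0.01 over all genes, whose quartiles were -0.30 and 0.30. The shNC and shSTIL libraries were fully separated in 5 of the 7 genes and in 60.3% of all genes. For a single gene, an exact two-sided permutation of the 6 libraries has 20 labellings and cannot go below p = 0.1, and it gave 0.1 for each of the 5 called genes. In bulk RNA, fewer cells in a given cell cycle phase and less RNA per cell cannot be told apart.

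**Figure D1:**
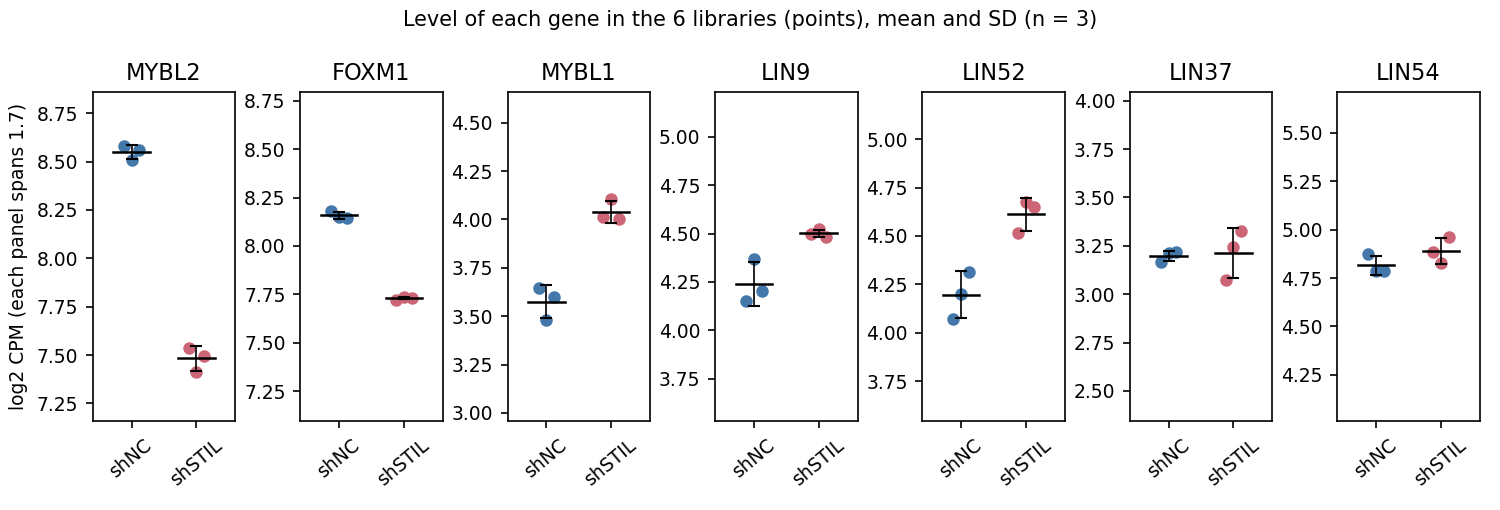
Log2 CPM (y axis) of the 7 genes in shNC and shSTIL, with 1 point per library and the mean and SD of 3 libraries as bars. The axes start at different levels but span the same length; the MYBL2 and FOXM1 points of shSTIL lie below those of shNC, the MYBL1, LIN9 and LIN52 points lie above, and those of LIN37 and LIN54 overlap.

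MYBL2 (B-MYB), the MYB factor that joins MuvB in S phase, showed the largest change of the 7. Its log2 CPM was 8.58, 8.51 and 8.56 in shNC and 7.54, 7.41 and 7.50 in shSTIL. All 3 knockdown libraries were below all 3 controls, with a gap of 0.97 between the nearest libraries. This was a log2 fold change of -1.07 (SE 0.04, limma adjusted p = 6.4e-11), which left 47.8% of the control level (95% interval 45.2% to 50.5%). MYBL2 spans chr20:43667019-43716496 on the plus strand (GENCODE 29, GRCh38), was counted with 5935 to 6129 reads in shNC and 2930 to 3180 in shSTIL, and ranked 434 by fall among all genes.

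FOXM1, the forkhead factor that activates genes of G2 and mitosis, was also lower, by a smaller amount. Its log2 CPM was 8.18, 8.15 and 8.15 in shNC and 7.72, 7.73 and 7.73 in shSTIL. The libraries within a group lay within 0.03 of each other (SD 0.02 in shNC and 0.01 in shSTIL, n = 3 each), and the groups were separated by 0.41. FOXM1 thus had a log2 fold change of -0.43 (SE 0.03, limma adjusted p = 3.1e-08), or 74.3% of the control level (95% interval 71.1% to 77.6%). FOXM1 lies at chr12:2857681-2877155 on the minus strand, and 781 of its 4899 exonic bases overlap ITFG2 on the opposite strand. ITFG2 had 239 to 273 reads per library, compared with 3611 to 4647 for FOXM1.

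MYBL1 (A-MYB), a MYB factor best known for its role in male meiosis, was higher in shSTIL. Its log2 CPM was 3.65, 3.48 and 3.60 in shNC and 4.01, 4.11 and 4.0 in shSTIL, so the groups did not overlap and were 0.36 apart. This amounted to a log2 fold change of 0.46 (SE 0.08, limma adjusted p = 2.4e-04), or 138% of the control level (95% interval 122% to 156%). This gene was counted with 180 to 199 reads in shNC and 270 to 294 in shSTIL.

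MYB (c-MYB), the relative of both that is best known from blood progenitors, was lower at a level far under that of MYBL2. It had 74, 83 and 89 reads in shNC and 8, 14 and 15 reads in shSTIL. MYB changed by -2.67 on the log2 scale (SE 0.22, limma adjusted p = 2.8e-07), to 15.8% of the control level. The 3 MYB genes thus differed in direction, with MYB and MYBL2 lower and MYBL1 higher.

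LIN52, the MuvB subunit whose phosphorylation by DYRK1A favours assembly of DREAM, was higher in shSTIL. Its log2 CPM was 4.07, 4.20 and 4.32 in shNC and 4.51, 4.67 and 4.65 in shSTIL. Each knockdown library exceeded each control, with 0.20 between the nearest libraries and an SD of 0.12 within shNC. The log2 fold change was 0.42 (SE 0.08, limma adjusted p = 3.6e-04), or 133% of the control level (95% interval 119% to 150%). LIN52 (chr14:74084796-74201235, plus strand) had 268 to 315 reads in shNC and 389 to 437 in shSTIL. The call was lost without shNC replicate 1 (0.35, adjusted p = 0.0126), shNC replicate 2 (0.42, 0.0186), shSTIL replicate 2 (0.39, 0.0246) or shSTIL replicate 3 (0.40, 0.0274).

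LIN9, the subunit that with LIN52 forms the binding surface for MYBL2, was higher by the smallest amount among the called genes. Its log2 CPM was 4.15, 4.37 and 4.20 in shNC and 4.50, 4.52 and 4.48 in shSTIL. Replicate 2 of shNC stood above the other controls and 0.12 below the lowest knockdown library. The log2 fold change was 0.26 (SE 0.07, limma adjusted p = 0.0063), or 120% of the control level (95% interval 108% to 133%). This call held in only 1 of the 6 fits that left out a library (without shNC replicate 2), with log2 fold changes of 0.21 to 0.32 and adjusted p of 0.0029 to 0.055 over these fits, and it was lost by DESeq2 (adjusted p = 0.0185). LIN9 lies at chr1:226231149-226309869 on the minus strand and had 283 to 335 reads in shNC and 378 to 393 in shSTIL.

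LIN37, the subunit needed for repression by DREAM, had log2 CPM of 3.17, 3.21 and 3.22 in shNC and 3.07, 3.24 and 3.32 in shSTIL. The knockdown libraries lay on both sides of the controls. The log2 fold change was 0.02 (SE 0.10, limma adjusted p = 0.906), and its 95% interval ran from -0.20 to 0.24, so a change within that range was not excluded. LIN37 had the lowest read counts (142 to 168), for which counting error alone gives an SD of 0.12 on the log2 scale. GENCODE 29 places 2 further genes, AD000671.1 on the same strand and AD000671.3 on the opposite strand, over 752 and 1180 of its 2820 exonic bases, and its value is uncertain for that reason.

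LIN54, the subunit that contacts the CHR, had log2 CPM of 4.87, 4.79 and 4.79 in shNC and 4.88, 4.83 and 4.96 in shSTIL. The lowest knockdown library was below the highest control. The log2 fold change was 0.08 (SE 0.06, limma adjusted p = 0.294), with a 95% interval of -0.05 to 0.20. LIN54 spans chr4:82909973-83012926 on the minus strand and had 437 to 527 reads.

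RBBP4, the fifth protein of the MuvB core and a subunit of other chromatin complexes as well, went the other way from LIN52 and LIN9. Its log2 CPM was 7.74, 7.76 and 7.76 in shNC and 7.18, 7.15 and 7.13 in shSTIL, a log2 fold change of -0.60 (SE 0.03). The core was therefore not uniform at the RNA level, with RBBP4 lower, LIN52 and LIN9 higher, and LIN37 and LIN54 not called.

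The partners that turn MuvB into DREAM were split as well. Among these partners together with RBBP4 (7 genes), 3 were lower and 3 were higher, and the median was 0.08 on the log2 scale. Calls were common among all genes that averaged 3 or more in log2 CPM (32.8% lower and 32.4% higher). The pocket protein RBL1 was lower (log2 CPM of 5.91, 5.87 and 6.02 in shNC and 5.45, 5.39 and 5.36 in shSTIL, log2 fold change -0.53). For RBL2, the pocket protein that is typical of resting cells, the log2 fold change was 0.08 (SE 0.04, limma adjusted p = 0.064), which did not pass. Both E2F partners were higher, E2F5 by 0.66 (3.28, 3.27 and 3.13 in shNC against 3.92, 3.83 and 3.91 in shSTIL) and E2F4 by 0.20. Of the dimerization partners, TFDP1 was lower (-0.44) and TFDP2 was higher (0.25).

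Of 10 regulators of FOXM1, MYBL2 or DREAM, 6 were lower, 3 were higher and 1 was not called, with a median of -0.23 on the log2 scale. CCNA2, CDK1 and PLK1, all lower, are also on the list of late genes below, so the counts of these lists are not separate. Of all genes that averaged 3 or more in log2 CPM, as these 10 did, 32.8% were lower and 32.4% higher. The kinase MELK and cyclin A2 (CCNA2), both known to act on FOXM1, had log2 fold changes of -0.95 and -0.92, and that of the cyclin A partner CDK2 was -0.84. CDK1, the main mitotic kinase, was lower by a smaller amount (-0.45), as were PLK1 (-0.24) and CDK4 (-0.21). CDK6 was higher by 1.00 (log2 CPM of 7.31, 7.42 and 7.43 in shNC and 8.44, 8.36 and 8.37 in shSTIL). Its cyclin partner CCND1 was higher by 0.29 and the CDK inhibitor CDKN1A by 0.22. DYRK1A was not called (0.06, SE 0.05). Of the forkhead relatives, FOXO3, which competes with FOXM1 at some promoters, was higher by 0.19, and FOXO1 (0.17, limma adjusted p = 0.0125) and FOXO4 (0.16, 0.179) were not called.

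**Figure D2:**
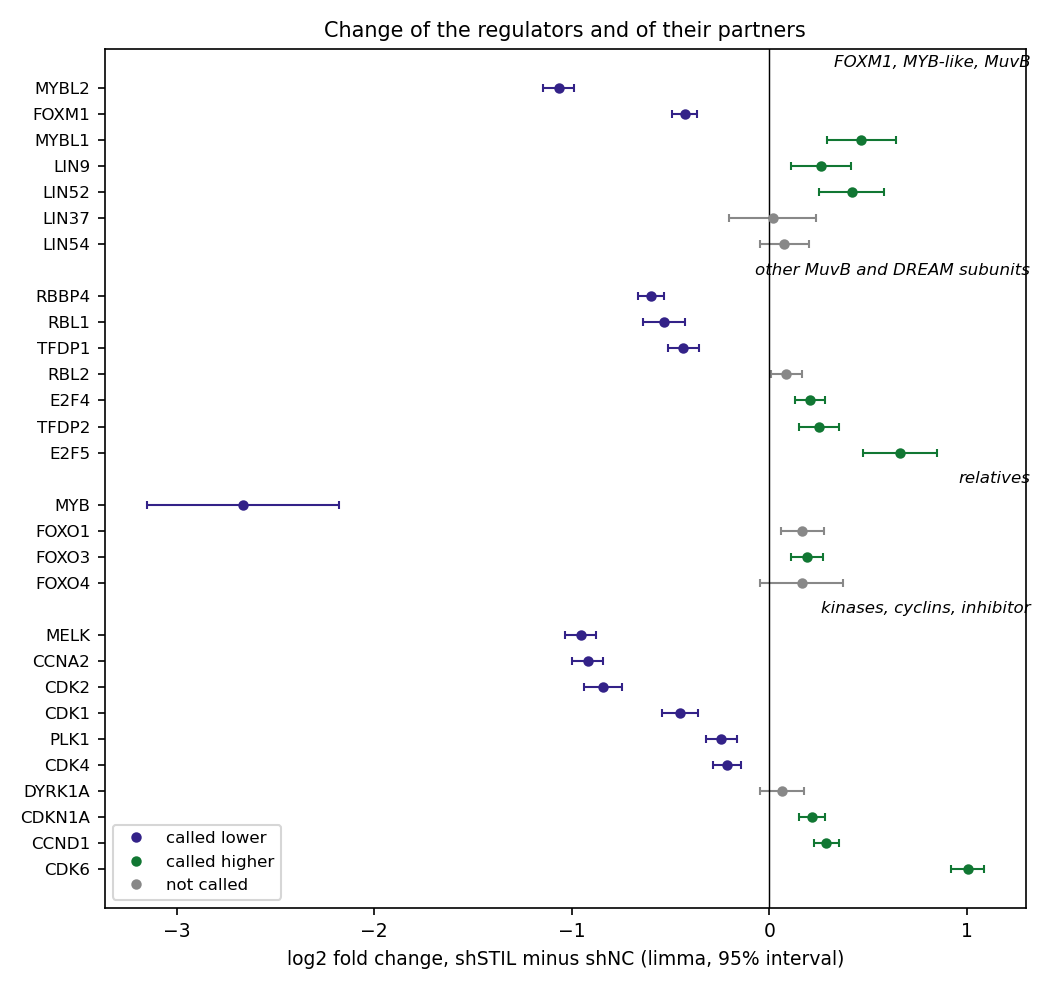
Log2 fold change (x axis, shSTIL minus shNC) of the 7 genes, of the other MuvB and DREAM subunits, of the relatives and of the kinases, cyclins and inhibitor, with the limma estimate as a point and the 95% interval as a bar. Blue points were called lower, green points higher and grey points were not called; MYB (-2.67), MYBL2 (-1.07), MELK and CCNA2 lie farthest to the left, and CDK6 (1.00) lies farthest to the right.

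To compare levels between genes, CPM was divided by the length of the principal transcript in kb, which gives a level in RPKM. MYBL2 was the most abundant of the 7 in both groups, at 139.8 ± 2.6 (SD, n = 3) in shNC and 68.8 ± 2.8 in shSTIL. FOXM1 followed with 81.0 ± 0.9 and 62.0 ± 0.5. The ranges of MYBL2 and FOXM1 did not overlap in either group, but the distance between them narrowed.

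The MuvB subunits were about an order of magnitude below. LIN37 was at 7.76 ± 0.18 RPKM in shNC and 8.11 ± 0.73 in shSTIL, and LIN52 was at 6.48 ± 0.55 and 8.91 ± 0.55. These neighbours changed places, but their libraries overlapped in shSTIL (7.31 to 8.73 for LIN37 and 8.29 to 9.33 for LIN52). LIN9 was at 5.20 ± 0.46 and 6.41 ± 0.10, LIN54 at 4.51 ± 0.14 and 4.90 ± 0.22, and MYBL1 was the lowest at 2.24 ± 0.12 and 3.19 ± 0.14. The order was the same when the longest transcript was used.

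**Figure D3:**
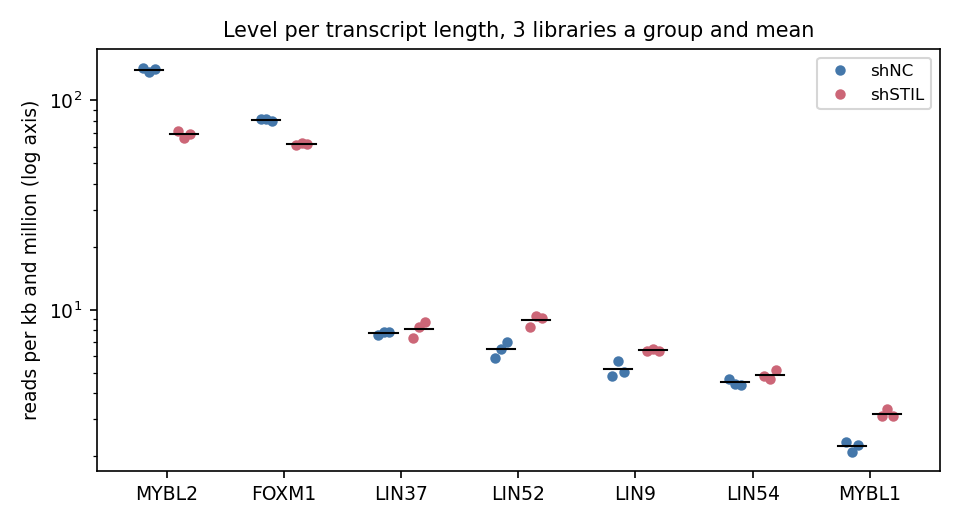
Level per transcript length (y axis, CPM per kb of transcript, log scale) of the 7 genes in 3 shNC and 3 shSTIL libraries, with a line at each mean. MYBL2 and FOXM1 are the highest in both groups, and MYBL1 is the lowest.

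Within a library, the balance between the factors was also shifted. Per length, MYBL2 exceeded MYBL1 by 60.6, 64.9 and 61.9 times in the shNC libraries and by 22.8, 19.6 and 22.3 times in the shSTIL libraries. MYBL2 exceeded FOXM1 by 1.74, 1.69 and 1.76 times in shNC and by 1.16, 1.05 and 1.12 times in shSTIL, and FOXM1 exceeded MYBL1 by 36.2 ± 2.0 and 19.4 ± 0.7 times. These ratios do not depend on the normalization between libraries. Of the 21 pairs among the 7 genes, 17 had within-library differences that did not overlap between the groups. The pairs reuse the same 7 genes, so they are not independent of the single-gene changes. The share over pairs of all genes was not computed, and 60.3% of all single genes did not overlap. With 3 libraries per group the exact two-sided permutation test gave p = 0.1 for each of these 17, or 0.124 after Benjamini-Hochberg adjustment over the 21 pairs, so that none could pass. The 4 pairs that overlapped were MYBL1 with LIN52, LIN9 with LIN52, LIN9 with LIN54, and LIN37 with LIN54, each of which joins genes that were both higher, or at least 1 that was not called.

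The late genes, which MuvB with MYBL2 and FOXM1 is known to activate, were mostly lower. Of 44 such genes, 36 were lower, 0 were higher and 8 were not called by limma, with a median of -0.43, whereas 23.6% of all genes, and 32.8% of those that averaged 3 or more in log2 CPM, were lower. This list and the next were chosen with earlier results of these data known, so their counts are no independent evidence of direction. At an unadjusted p under 0.05 in limma the count of higher genes was 1 (ECT2, 0.10). At an adjusted p under 0.01 it was 0 by edgeR and by DESeq2, and 1 by limma after median centring. The largest falls were of the spindle proteins NUSAP1 (-1.28) and DLGAP5 (-1.15), the cytokinesis motor KIF20A (-0.94), and the cyclins CCNA2 (-0.92) and CCNF (-0.91). Cyclin B1 (CCNB1) had log2 CPM of 7.66, 7.73 and 7.72 in shNC and 7.06, 7.06 and 7.05 in shSTIL (-0.64, SE 0.03). The 8 genes that were not called were HMMR, CKS2, ASPM, CDCA8, KIF14, CENPE, ECT2 and GAS2L3, named here after their values were seen.

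The early genes of G1 and S phase, which DREAM represses through E2F elements, were lower by more. All 30 of these genes were called lower, with a median of -1.18. By the same rule 23.6% of all genes, and 32.8% of those that averaged 3 or more in log2 CPM, were lower. RRM2, the small subunit of ribonucleotide reductase, had log2 CPM of 9.02, 9.05 and 9.06 in shNC and 6.98, 6.90 and 6.97 in shSTIL (-2.09, SE 0.03). It was followed by the helicase and replication origin genes MCM4 (-1.85), GINS2 (-1.74), CDC6 (-1.69) and MCM2 (-1.53). CCNE2, at low counts, had the lowest value of the list (-2.80) and was named after it was seen, as its mean log2 CPM was under 3. MYBL2 and FOXM1 (-1.07 and -0.43) each lay within the range of both the early list (-2.80 to -0.39) and the late list (-1.28 to 0.13).

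**Figure D4:**
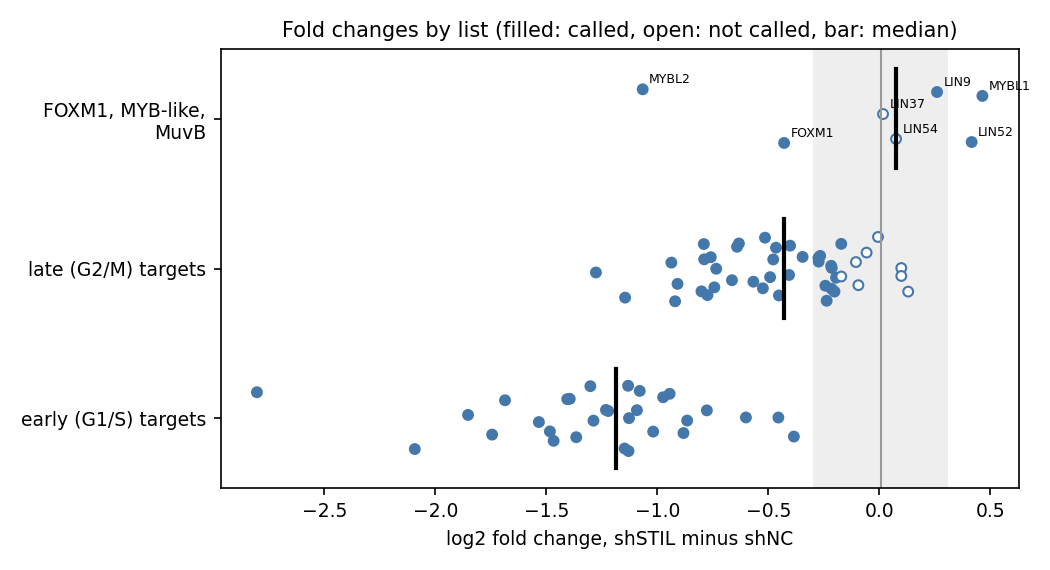
Log2 fold change (x axis, shSTIL minus shNC) of the 7 genes, 44 late genes and 30 early genes, with 1 point per gene, filled where called and open where not, and a black bar at each median. The grey band spans the quartiles of all genes (-0.30 to 0.30) around their median; the early genes all lie to the left of it, and the late genes reach from -1.28 to 0.13.

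The promoters of both lists were searched for the same letters, and windows of some of the genes with the largest falls are printed to show the elements. RRM2, the largest of the early falls named, had no E2F match in its promoters, MCM4 has no window here, and KIF20A had its CHR on the opposite strand, at position -244 from the start. The first 4 windows carry a CHR and the last 3 an E2F element, in capitals, again from RefSeq (GRCh38.p14) and on the strand of the gene.
NUSAP1: tggcgccagggaTTTGAAccgcgctgacga
DLGAP5: cggtgcggcaagTTTGAAtttcgtggaggc
CCNA2: agtcgcgggataCTTGAActgcaagaacag
CCNF: gggccgggtgcgTTTGAAaactggggtggg
GINS2: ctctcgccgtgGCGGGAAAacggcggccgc
CDC6: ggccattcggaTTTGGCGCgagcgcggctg
MCM2: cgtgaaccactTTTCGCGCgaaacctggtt
The windows were at chr15:41332882-41332911 (NUSAP1), chr14:55191565-55191594 (DLGAP5), chr4:121823894-121823923 (CCNA2), chr16:2429350-2429379 (CCNF), chr16:85688967-85688996 (GINS2), chr17:40287875-40287904 (CDC6) and chr3:127598402-127598431 (MCM2). DLGAP5, CCNA2 and GINS2 are on the minus strand. The CHR lay 28 bases before the start in CCNA2 and 85 bases before it in CCNF. In GINS2 the element is on the opposite strand, so that its letters appear as the reverse complement of TTTCCCGC.

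A CHR match was held by 70.8% of the 48 late promoters (of 38 genes) and by 13.9% of the 36 early promoters (of 26 genes), compared with 24.9% of all promoters. An E2F match was held by 8.33% of the late and 55.6% of the early promoters, compared with 3.35% of all. CCAAT, which is searched on both strands, was found in 75% and 69.4% against 34.6%, the MYB letters in 70.8% and 38.9% against 52.4%, and the forkhead letters (TGTTTAC or TAAACA) in 10.4% and 11.1% against 12.3%. The short motifs can overlap, as AACTG does with a CHR in TTTGAACTG. Late genes with a CHR match (31) had a median log2 fold change of -0.47 and those without (7) of -0.22. Early genes with an E2F match (19) had a median of -1.15 and those without (7) of -1.09. Both lists hold genes already known as targets of MuvB or E2F factors, so their high CHR and E2F shares are no independent result. These matches describe letters in a window and were not tested as binding sites.

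**Figure D5:**
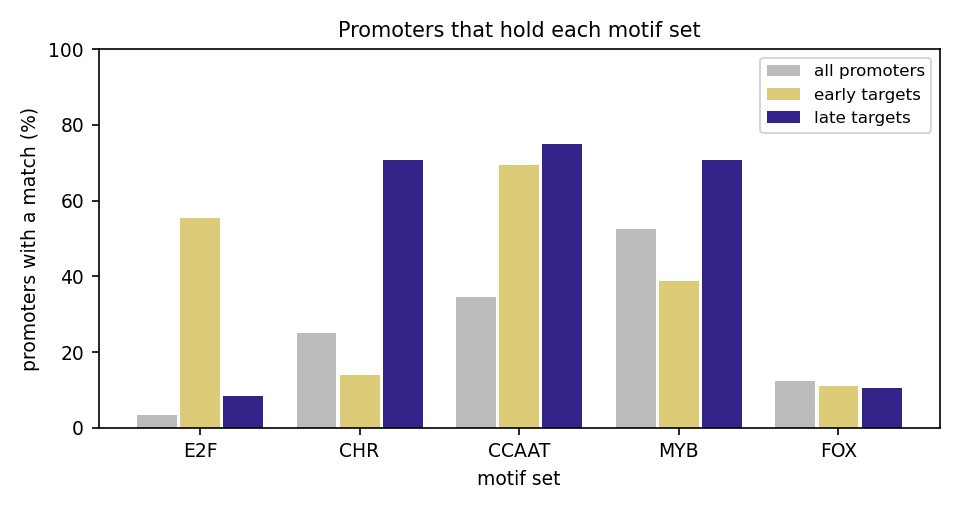
Share of promoters with a match (y axis, percent) to 5 motif sets in all RefSeq promoters, in early genes and in late genes. The CHR bar is highest for late genes (70.8%), and the E2F bar is highest for early genes (55.6%).

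The genes whose values over the 6 libraries were most like those of each regulator were found by the root mean square difference of the log2 deviations from the shNC mean, among 9936 genes that averaged 3 or more in log2 CPM. The closest to FOXM1 were DHRS11 (0.010), TPM3 (0.013) and ZNF207 (0.014), and to MYBL2 they were RAMAC (0.029), MLEC (0.035) and ALDH3A2 (0.039). HOXA10 (0.023), PMM2 and RABGGTB were closest to MYBL1. ZNF84 and LCOR were among the closest to LIN9. For LIN52 they were CD58, USP43 and FRRS1, for LIN37 STRADA, PDE6D and NSMCE2, and for LIN54 MON1B, NUDT7 and TNPO2. None of these genes was on the target, partner or regulator lists. Those lists hold few of the 9936 genes, so finding none of them here says little about the targets.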

How the data were processed

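RNA-seq of 6 EJ libraries (3 shNC, 3 shSTIL, grouped by their labels) was used. Reads of the BGISEQ-500 instrument were filtered by SOAPnuke and aligned to transcripts by Bowtie2, and the authors quantified genes with RSEM; the submitters' processing notes also name limma and hg38; versions were not given in the sources used here. The deposited values used were log2 CPM of 15953 genes for all 6 libraries, which by their values are edgeR CPM with TMM factors and a prior count of 2, and estimated counts from RSEM in the count tables used here, which cover 4 libraries (1 shNC, 3 shSTIL). The prior count understates changes of low genes, and RSEM divides reads between similar transcripts. The counting was not stated to use strand.

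The groups were compared with limma 3.58.1 (lmFit, eBayes with trend; R 4.3.3) on log2 CPM as deposited, over all genes, without a replicate block, with Benjamini-Hochberg adjustment and calls at an adjusted p under 0.01. The design had assumed read counts; the count tables used here hold estimated counts and only 1 control, so reads were recovered from log2 CPM (87.5% to 87.8% of values whole within 0.01) and rounded for edgeR 4.0.16 and DESeq2 1.42.0 as alternatives. Intervals are 95% intervals of limma. Recovered reads differed from the deposited estimated counts by less than 0.001. Fits were tested on simulated data.

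Genes named are the 7 regulators, STIL, all partners, regulators and relatives, the 5 largest falls and 3 largest rises per target list among called genes with mean log2 CPM of at least 3, CCNB1, CDK1, PLK1, CCNA2, and the 3 nearest genes per regulator, of which 1 is not reported here. The 7 genes and all lists were chosen with earlier results of these data known. Gene models and lengths are from GENCODE 29, and promoters from RefSeq.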

Additional observations from a re-analysis of the deposited data

How the results depend on the processing

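FOXM1, MYBL2 and STIL were called in the same direction in 17 of 17 tested alternatives, MYBL1 in 16, LIN52 in 12 and LIN9 in 8, and LIN37 and LIN54 in 0. The 17 include the main fit itself, listed again for an adjusted p under 0.05. This tally counted it at 0.01, so it could not differ from the main result and adds no check. LIN9 (0.26) was not called without the trend (adjusted p = 0.0222), by DESeq2 (0.26, 0.0185) or with the replicate block (0.0116). Against a fold of 1.2 (limma treat), MYBL1 (0.46, adjusted p = 0.0513), LIN52 (0.42, 0.110) and LIN9 (0.26, 0.954) lost the call; 2 of the 7 genes, 3317 of all genes, 5 regulators, 1 relative and 23 late genes then remained past the threshold. Leaving out each library in turn gave 0.21 to 0.32 for LIN9, 0.35 to 0.48 for LIN52, -0.038 to 0.087 for LIN37 (-0.038 without shSTIL replicate 3), 3 to 4 of the 7 genes called, with 3 without shNC replicate 1, shSTIL replicate 2 or shSTIL replicate 3, and 4900 to 5638 genes called in all, lowest without shSTIL replicate 3; these fits have fewer samples. On the deposited estimated counts alone (1 control, no test), FOXM1 was at -0.40, LIN9 at 0.39 and LIN52 at 0.58. These values were scaled by total counts without the TMM factors. Their control, shNC replicate 1, had the lowest log2 CPM of the 3 controls for LIN9 (4.15) and LIN52 (4.07) and the highest for FOXM1 (8.18). The cause was not tested.

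Same-numbered libraries did not deviate together (correlations of -0.12, -0.06 and -0.11 over 11319 genes), and the replicate numbers were not taken as pairs. The replicate block called 4 of the 7 genes and 6898 genes in all. Median centring shifted the median of all genes by 0.04. An edgeR test on genes that averaged 1 or more in log2 CPM was chosen after seeing the data and called 7461 genes. For LIN37 depth limits the precision.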
